A study of Mus musculus with 6 samples.

Results

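The genes described here are 6 mouse genes of the sodium-potassium ATPase (Na,K-ATPase) system, 3 beta subunits (Atp1b1, Atp1b2 and Atp1b3) and 3 FXYD regulators (Fxyd1, Fxyd5 and Fxyd6). They were picked by gene symbol, with the large change of Atp1b1 in these libraries already known. Of the 6, 5 are among the 14831 genes listed in the count table. Fxyd1, which encodes phospholemman, has no row there and was not analysed here. The libraries are RNAseq of immortalized pancreatic fibroblasts from adult mice of mixed strain that carried floxed Gli2 and Gli3 alleles. By the study's methods, control lines (the 3 libraries labelled WT) were given an eGFP adenovirus and a dsRed lentivirus, and knockout lines (the 3 labelled KO, genotype Gli2-/-;Gli3-/-) the eGFP adenovirus and a Cre adenovirus, so vectors differ between the groups besides Cre. All cells were immortalized, sorted by flow cytometry and grown to confluence in serum, with 1 well for each library. Replicates were separate wells of a group, so their spread is that of culture and library making and does not cover separately derived lines.

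The Na,K-ATPase exports sodium and imports potassium, and the sodium gradient it builds drives many other transporters. Each pump holds a catalytic alpha subunit and a glycosylated beta subunit, which the alpha subunit needs to fold and reach the plasma membrane and which can also hold neighbouring cells together. Small membrane proteins of the FXYD family bind the pump and tune its affinity for ions and its rate.

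In the labelled KO libraries, Atp1b1 was 5.33-fold lower, while Atp1b3 was 1.28-fold higher and the sparse transcripts Atp1b2, Fxyd5 and Fxyd6 were all higher. Per length of transcript, Atp1b1 stood above Atp1b3 in the labelled WT libraries and below it in the labelled KO libraries. The order in the labelled KO libraries depends on dividing by length, since without length the mean ratio of Atp1b1 to Atp1b3 was 1.02. Because the genes were chosen on this comparison, their differences are given as a description, with a standard error (SE) and no p, and nothing is drawn from how many of them pass the limits used for all genes. A gene was counted as called where the quasi-likelihood test of edgeR, adjusted by the Benjamini-Hochberg method, gave a p under 0.05 and the change was at least 1.5-fold. Of the 5 genes tested, 4 were called, 3 higher (Atp1b2, Fxyd5 and Fxyd6) and 1 lower (Atp1b1) in the labelled KO libraries. These counts include Atp1b1, whose change led to the choice. Among all 14289 tested genes 17.7% were called, 11.6% higher and 6.1% lower. Fxyd6 passed the filter on low counts only through the group labelled KO. In all 5 genes the ranges of CPM (counts scaled to a common library size) in the groups did not overlap, 4 with the labelled KO libraries above and 1 below. Such ranges were found for 64.2% of all tested genes, 32.9% above and 31.3% below. With no fold limit all 5 passed, 4 higher and 1 lower, as did 58.7% of all tested genes, 29.9% higher and 28.8% lower.

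**Figure D1:**
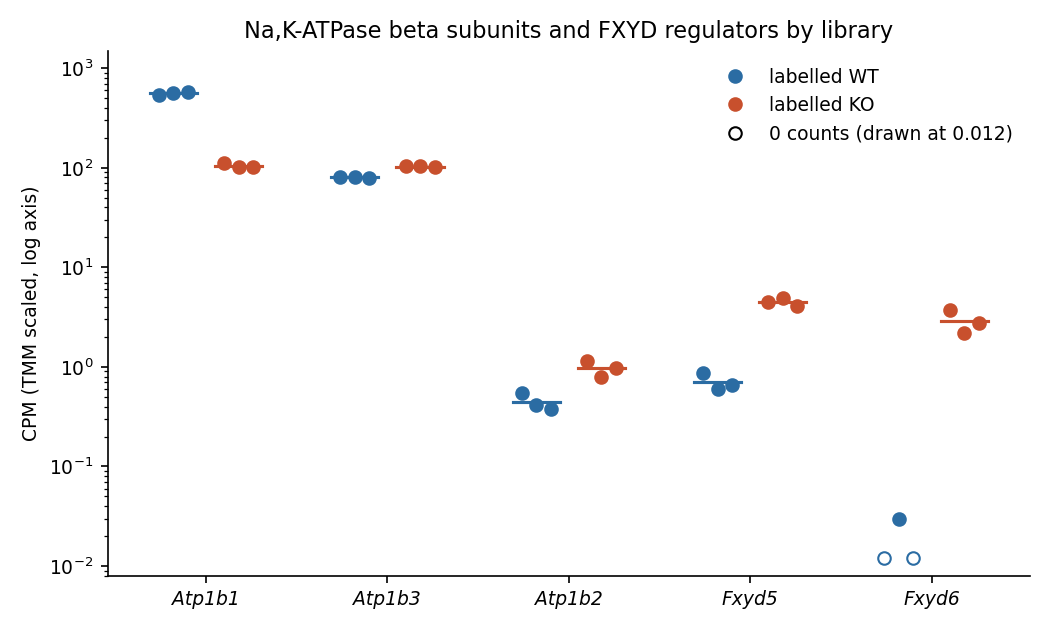
CPM of the 5 genes in each library (log axis), with blue points for the 3 labelled WT libraries, orange points for the 3 labelled KO, bars at group means and open points for libraries with 0 counts. Atp1b1 sits lower in the labelled KO libraries (105.4 against 562 CPM on average), and the other genes sit higher.

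The groups are named by their labels, and the targeted genes do not follow them. Gli2 had 809, 944 and 868 counts in the labelled WT libraries and 1932, 2316 and 1926 in the labelled KO libraries. Gli3 had 392, 416 and 398 counts against 1434, 1637 and 1404. Both transcription factor genes were thus higher in the labelled KO libraries, by 1.05 and 1.71 on the log2 scale (edgeR adjusted p = 8.01e-10 and 2.10e-11). Counts over a whole gene include exons outside a floxed part, so they do not check the deletion itself, for which the study's methods describe screening such lines by qPCR and western blot. Ptch1, a hedgehog target, was lower in the labelled KO libraries by a log2 fold change of -1.53, and Gli1, another target, by -2.40 (edgeR adjusted p = 2.16e-11 and 2.30e-05). Gli1 was sparse, with 40, 50 and 37 counts against 4, 10 and 13. Every direction below is therefore that of labelled KO libraries relative to labelled WT libraries. Total counts were 31728420 to 33905521 in the labelled WT libraries and 32781730 to 41035931 in the labelled KO libraries. A count of 3, taken as the floor of detection, is 0.072 to 0.0957 CPM in these libraries.

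Over all tested genes 11.6% were called higher and 6.1% lower. Among marker lists, 3 of 3 tested mesothelial markers were called higher in the labelled KO libraries. Their summed level was 20.6 to 23.2 CPM in the labelled WT libraries and 238.5 to 240.6 CPM in the labelled KO libraries. For epithelial markers 3 of 4 tested were called higher (20.2 to 22.7 CPM against 44.0 to 45.5 CPM), while Epcam, Krt18, Krt19 and Ptf1a have no row and Krt8 was at or under the floor in the labelled WT libraries. Sox9, the other epithelial marker tested, lay the other way, with 269, 281 and 273 counts against 198, 251 and 214 (log2 fold change -0.50, edgeR adjusted p = 0.000173, under the fold limit). Both tested muscle markers, Actg2 and Tnnt2, were called higher (90.2 to 97.8 CPM against 204.7 to 211 CPM), and Myh11, Des and Myh6 have no row. Fibroblast markers were abundant in every library, at 33370 to 35560 CPM against 31400 to 32760 CPM, with 2 of 5 tested called lower (Pdgfra and Pdgfrb) and no row for Pdpn. Thy1, listed but too low to be tested, had 4, 1 and 0 counts against 19, 15 and 9. None of 3 tested immune markers was called, and Ptprc and Adgre1 have no row. None of 3 tested Schwann and glial markers was called, Sox10 has no row, and none of 3 endothelial markers is listed. The part of these other transcripts in the values of the pump genes was not tested. In bulk libraries fewer cells of a type and less RNA per cell cannot be told apart.

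Atp1b1 encodes the beta1 subunit, the most widespread beta isoform and one known for joining epithelial cells to each other. The gene (ENSMUSG00000026576.12) lies on the minus strand of chromosome 1 from 164437109 to 164458355 in GRCm38. It had 17005, 19035 and 18381 counts in the labelled WT libraries, or 543, 568 and 576 CPM. In the labelled KO libraries it had 3981, 4277 and 3339 counts, or 112, 103 and 101 CPM. Every library labelled KO was far below every library labelled WT, and libraries of a group lay close together. The means were 562 ± 17.4 and 105.4 ± 6.13 CPM (SD, n = 3 per group). On the log2 scale the change was -2.42 (SE 0.04). By size this change ranked 427 among the 14289 tested genes, and 108 among decreases. Between -2.47 and -2.36 was found under every alternative scaling, filter, tool and left-out library that was tried.

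Part of Atp1b1 is shared with another gene. At its 3' end 575 bases, or 18.7% of its exon bases, overlap exons of Nme7 on the opposite strand, and whether the counting used strand is not given in the sources used here. Nme7, a nucleoside diphosphate kinase family gene, had 565, 588 and 568 counts in the labelled WT libraries and 488, 579 and 429 in the labelled KO libraries. These counts are below those of Atp1b1 in every library, and the log2 fold change of Nme7 was -0.39 (SE 0.06, edgeR adjusted p = 5.24e-05), under the fold limit.

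Atp1b3 encodes the beta3 subunit, also known as CD298 and present in many tissues. The gene (ENSMUSG00000032412.8) lies on the minus strand of chromosome 9 from 96332655 to 96364442. It had 2556, 2678 and 2517 counts in the labelled WT libraries and 3691, 4302 and 3329 in the labelled KO libraries. All 3 labelled KO libraries were above all 3 labelled WT once scaled, at 102.8 ± 1.74 against 80.1 ± 1.37 CPM (SD, n = 3 per group). Atp1b3 was 0.36 higher on the log2 scale (SE 0.03), or 1.28-fold, which is under the 1.5-fold limit. Atp1b1 and Atp1b3 thus differed in opposite directions in the same libraries.

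Atp1b2 encodes the beta2 subunit, an adhesion molecule of glia that is found mainly in nervous tissue. The gene (ENSMUSG00000041329.13) lies on the minus strand of chromosome 11 from 69599736 to 69605942. Its counts were 17, 14 and 12 in the labelled WT libraries and 41, 33 and 32 in the labelled KO libraries. The groups did not overlap, but each library rests on few reads, and the scatter between libraries was wide. The level was 0.446 ± 0.0866 CPM against 0.973 ± 0.183 CPM (SD, n = 3 per group), or 1.11 higher on the log2 scale (SE 0.25). Schwann and glial markers, summed, were at 3.73 to 5.45 CPM in the labelled WT libraries and 3.93 to 4.82 CPM in the labelled KO libraries, with overlapping ranges.

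Fxyd5 encodes dysadherin, a pump regulator known for lowering adhesion through E-cadherin. The gene (ENSMUSG00000009687.14) lies on the minus strand of chromosome 7 from 31032722 to 31042481. It had 27, 20 and 21 counts in the labelled WT libraries and 159, 204 and 136 in the labelled KO libraries. The lowest library labelled KO stood well above the highest labelled WT. The means were 0.706 ± 0.139 and 4.50 ± 0.388 CPM (SD, n = 3 per group). The log2 fold change was 2.68 (SE 0.16), or 6.40-fold. Cdh1, which encodes E-cadherin, had 10, 14 and 9 counts in the labelled WT libraries and 28, 33 and 19 in the labelled KO libraries.

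Fxyd6 encodes phosphohippolin, a pump regulator best known from the brain. The gene (ENSMUSG00000066705.7) lies on the plus strand of chromosome 9 from 45370185 to 45396159. It had 0, 1 and 0 counts in the labelled WT libraries and 132, 92 and 91 in the labelled KO libraries. The transcript was thus at or under the floor in every library labelled WT and present in every library labelled KO, at 3.73, 2.21 and 2.76 CPM. With 1 read summed over the group labelled WT and 315 over that labelled KO, the scaled ratio was 277, with a 95% interval for counting error of 49.3 to 11000. Without WT replicate 2, which held the only read of its group, the level was at least 60.3-fold higher in the labelled KO libraries, against a floor of 3 counts over the group. Leaving out any other library gave ratios of 186 to 315.

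The spread between libraries of a group was smallest for the abundant genes. The pooled SD of log2 CPM, with a small constant added to CPM, was 0.0245 for Atp1b3 and 0.0665 for Atp1b1. It was 0.21 for Fxyd5, 0.269 for Atp1b2 and 0.857 for Fxyd6. The value of Fxyd6 depends on that constant, since its labelled WT libraries held 0, 1 and 0 counts. Set against all tested genes, Fxyd6 ranked 22 by size of fitted change, Fxyd5 358, Atp1b2 1283 and Atp1b3 4504. The fitted value of Fxyd6 depends on the prior count that edgeR adds.

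**Figure D2:**
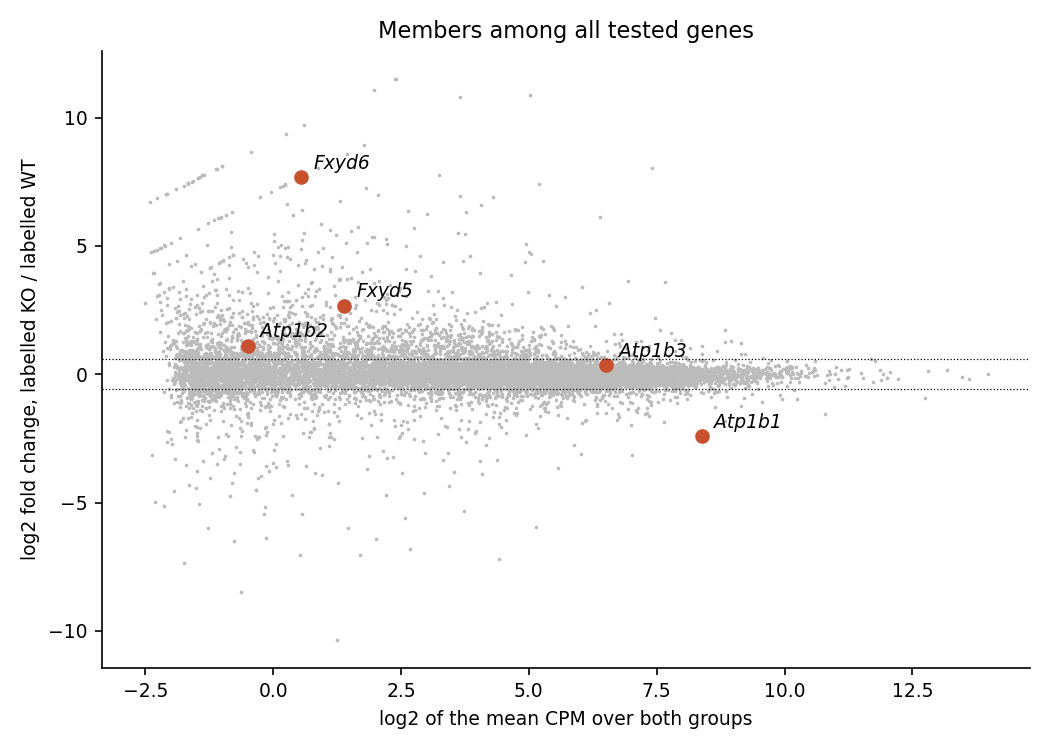
Log2 fold change (labelled KO libraries over WT) of each of the 14289 tested genes (grey) against the log2 of its mean CPM, with the 5 genes in orange and dotted lines at 1.5-fold. Atp1b1 lies below the lower line at high abundance, Atp1b3 lies between the lines, and Atp1b2, Fxyd5 and Fxyd6 lie above the upper line at low abundance. The height of Fxyd6 depends on the prior count.

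Levels of different genes were compared as CPM per kilobase (kb) of exon. On this per-kb scale the labelled WT libraries had Atp1b1 at 182.5 ± 5.65 and Atp1b3 at 33.5 ± 0.571 (SD, n = 3). In the labelled KO libraries the order was Atp1b3 at 43.0 ± 0.730 and then Atp1b1 at 34.2 ± 1.99. Among these 5 genes Atp1b1 was thus the highest in the labelled WT libraries and stood behind Atp1b3 in the labelled KO libraries. Far lower in the labelled WT libraries came Fxyd5 at 0.168, Atp1b2 at 0.109 and Fxyd6 at 0.00242 CPM per kb. In the labelled KO libraries these were 1.07 for Fxyd5, 0.706 for Fxyd6 and 0.238 for Atp1b2. In neither group did the ranges of neighbours in the order overlap. With the longest transcript as length, Fxyd6 was at 1.23 in the labelled KO libraries, and there its range overlapped that of Fxyd5.

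**Figure D3:**
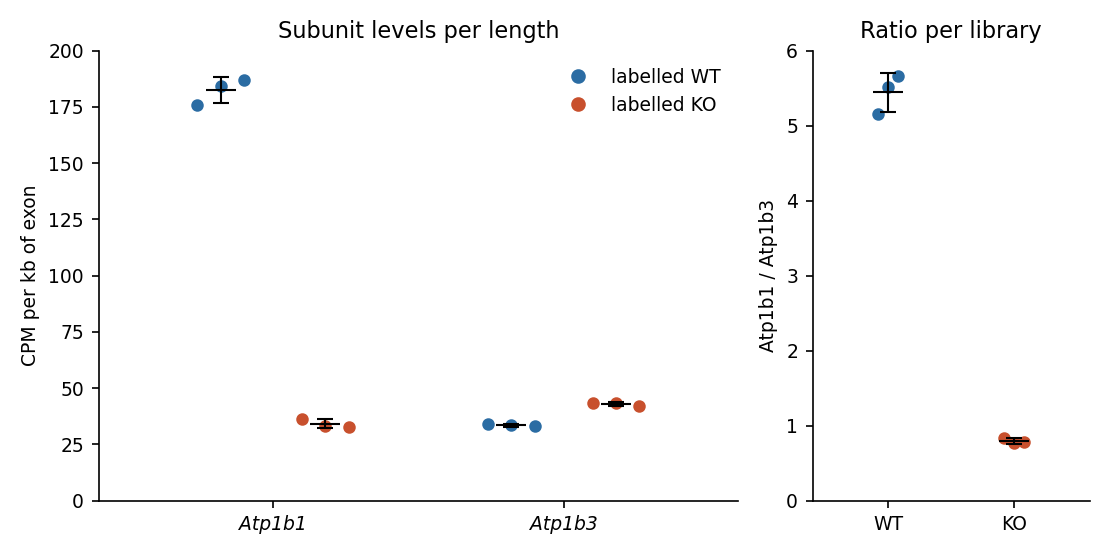
Left, CPM per kb of exon of Atp1b1 and Atp1b3 in each library. Right, the Atp1b1 level over the Atp1b3 level, with points for libraries and black bars for the mean and SD (n = 3). Atp1b1 is above Atp1b3 in the labelled WT libraries and below it in the labelled KO libraries, and the mean ratio is 5.44 in the first group and 0.795 in the second. The order in the second group depends on dividing by length.

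The make-up of the beta transcripts changed with these levels. Atp1b1 made up 83.7, 84.6 and 85.0% of the summed beta level per kb in the labelled WT libraries, and 45.4, 43.4 and 43.6% in the labelled KO libraries. Its mean share was 84.4 ± 0.642% against 44.1 ± 1.08% (SD, n = 3 each), and that of Atp1b3 was 15.5 ± 0.631% against 55.6 ± 1.12%. Atp1b2 stayed a trace in both groups, at 0.0506% against 0.307%. These shares lie within a library, so they do not depend on the scaling between libraries. They are parts of 1 sum, so a lower Atp1b1, whose change led to the choice, by itself raises the share of Atp1b3. The level of Atp1b3 was 33.5 against 43.0 CPM per kb, and its share is no separate result. The ratios and the summed level given next also include Atp1b1. By library, Atp1b1 stood 5.16, 5.51 and 5.66 times as high as Atp1b3 in the labelled WT libraries and 0.836, 0.771 and 0.778 times as high in the labelled KO libraries. Per kb of exon, the groups lay on opposite sides of equal levels. On average Atp1b1 stood 5.44 ± 0.259 times as high as Atp1b3 in the labelled WT libraries and 0.795 ± 0.036 times as high in the labelled KO libraries. Counted without length, the share of Atp1b1 was 87.5% in the labelled WT and 50.4% in the labelled KO libraries. Its mean ratio to Atp1b3 in the latter was then 1.02, so their order there depends on dividing by length. With the longest transcript as length this mean ratio was 0.792. The length of Atp1b1 includes the 575 bases shared with Nme7. Whether reads there were lost, which would lower its level per kb, was not tested.

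The summed level of the 3 beta genes was 210.4, 218 and 220.0 CPM per kb in the labelled WT libraries and 80.4, 76.7 and 75.3 in the labelled KO libraries. Every labelled KO library held less beta transcript than every labelled WT library, although Atp1b2 and Atp1b3 were higher there. The mean was 216 ± 5.07 CPM per kb in the labelled WT libraries and 77.5 ± 2.65 in the labelled KO libraries. The sum was 2.79 times as high in the labelled WT libraries. These are levels of transcripts, and no protein level was used here.

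**Figure D4:**
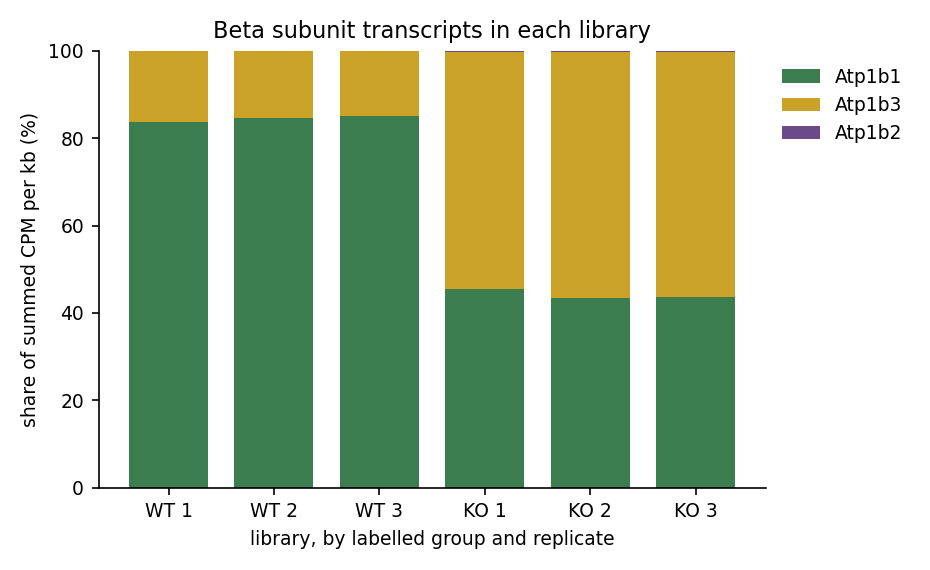
Share of each beta subunit gene in the summed beta level (CPM per kb of exon) of each library, in percent. Atp1b1 (green) fills 83.7 to 85.0% in the labelled WT libraries and 43.4 to 45.4% in the labelled KO libraries, Atp1b3 (yellow) fills most of the rest, and Atp1b2 (purple) is barely visible.

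The sequence just upstream of the start site is shown for 3 of the genes, as the gene that was lower (Atp1b1) and 2 that were higher (Atp1b3 and Fxyd6). Sequences are from RefSeq (GRCm38.p6), in which 5 of the 6 genes had at least 1 window of 250 bases before to 50 bases after the start, 6 windows in all. Each runs 5' to 3' on the strand of the gene, and exon bases were left out. Capitals mark the GC box GGGCGG (or CCGCCC, its other strand) and the E-box CACCTG (or CAGGTG).
Atp1b1, chr1:164458356-164458605, minus strand: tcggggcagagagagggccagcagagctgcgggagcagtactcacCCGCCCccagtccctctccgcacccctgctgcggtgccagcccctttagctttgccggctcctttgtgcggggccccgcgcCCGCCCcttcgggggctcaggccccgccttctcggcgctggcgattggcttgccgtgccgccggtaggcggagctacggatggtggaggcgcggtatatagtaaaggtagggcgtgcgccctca
Atp1b3, chr9:96364443-96364681, minus strand: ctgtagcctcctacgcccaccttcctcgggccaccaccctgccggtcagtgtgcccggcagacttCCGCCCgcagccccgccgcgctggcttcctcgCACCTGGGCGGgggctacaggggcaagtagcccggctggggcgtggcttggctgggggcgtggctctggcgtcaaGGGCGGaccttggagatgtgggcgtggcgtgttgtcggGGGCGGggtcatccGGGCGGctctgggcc
Fxyd6, chr9:45369935-45370184, plus strand: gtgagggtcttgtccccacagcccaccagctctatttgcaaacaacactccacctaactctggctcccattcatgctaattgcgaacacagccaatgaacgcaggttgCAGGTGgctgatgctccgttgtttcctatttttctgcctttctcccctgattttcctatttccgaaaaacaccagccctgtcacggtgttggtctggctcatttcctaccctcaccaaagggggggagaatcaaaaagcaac

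In the full 300-base window the start region of Atp1b1 was 71.0% G or C with 31 CG pairs and held 2 GC boxes, which begin 205 and 124 bases before the start. The first of 2 windows of Atp1b3, the one shown, was 76.0% G or C with 34 CG pairs and 6 GC boxes. It also held an E-box from -153 to -148, which shares its last base with a GC box. The other window of Atp1b3 was 74.7% G or C with 39 CG pairs and held no match to the letters searched. The window of Fxyd6 was 54.3% G or C with 12 CG pairs and an E-box from -142 to -137 on the other strand. Over all 32851 windows the medians were 52.7% G or C and 7 CG pairs. Both strands were searched, and 35.7% of all windows hold a GC box, 20.2% the E-box and 13.6% the TATA box TATAAA. The GLI consensus GACCACCCA is in 0.253% of all windows and in none of the 6. The windows of Fxyd1 and Fxyd5 were 58.7% and 57.3% G or C with 6 CG pairs each. That of Fxyd1 held TATAAA on the other strand, at bases 1 to 6 after the start base. These matches describe letters, and no binding was measured here.

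No row was found for the other beta and FXYD genes Atp1b4, Fxyd2, Fxyd3, Fxyd4 and Fxyd7.

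Of 18 regulators and anchors of the pump, all tested, 4 were called higher and 1 lower, or 27.8% against 17.7% of all tested genes. The median log2 fold change of the list was 0.113, against 0.002 over all tested genes. Nedd4l, a ubiquitin ligase of sodium channels, was lower, with 5031, 5400 and 5056 counts against 1968, 2223 and 1848 (log2 fold change -1.54, SE 0.03, edgeR adjusted p = 1.14e-12). Wfs1 encodes wolframin, which binds the beta1 subunit, and was higher by 0.61 on the log2 scale (SE 0.04, edgeR adjusted p = 4.18e-08). Nkain2 and Nkain3, which encode proteins that interact with the pump, were higher. Nkain2 had 1, 3 and 2 counts against 19, 16 and 24, a ratio of 8.64 (95% interval for counting error 3.74 to 24.5). Like Fxyd6, Nkain2 passed the filter on low counts only through the group labelled KO. Its call, which the list count includes, is thus given as a description only. Nkain3 rose by 0.63 and the adducin gene Add2, at 4 to 21 counts, by 1.25 on the log2 scale (edgeR adjusted p = 0.00494 and 0.0122). Both of these calls were lost under an alternative, Nkain3 without KO replicate 3, and Add2 with DESeq2 and without KO replicate 1.

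Among transporters that run on the sodium gradient, 22 of 32 are listed and 20 were tested. Of the 20 tested, 3 were called higher and 1 lower, or 20.0% against 17.7% of all tested genes. Their median log2 fold change was 0.07. Slc38a1, a sodium-coupled glutamine transporter, was lower by a log2 fold change of -0.99 (edgeR adjusted p = 8.33e-10). Slc1a3, a glutamate transporter, rose by 1.83 and Slc1a5, a neutral amino acid transporter, by 1.07 on the log2 scale (edgeR adjusted p = 2.52e-11 and 6.96e-09). Slc4a4, a sodium bicarbonate cotransporter, had 0, 1 and 1 counts against 14, 23 and 15, a ratio of 22.9 (95% interval for counting error 6.02 to 194). Slc4a4 also passed the filter only through the group labelled KO, so its call, included in the list count, is a description only.

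Of 33 genes of other P-type ATPases, 21 are listed and 20 were tested. Besides relatives of the catalytic subunit of the pump, the 33 include Atp4b, a beta subunit gene that has no row. Of the 20 tested, 4 were called higher and 3 lower, or 35.0% against 17.7% of all tested genes. Their median log2 fold change was 0.125. The flippase gene Atp8b1 (-3.03), the copper pump gene Atp7b (-1.93) and the calcium pump gene Atp2b4 (-0.90) were lower on the log2 scale (edgeR adjusted p = 2.33e-06, 0.000125 and 4.80e-07). Atp8b1 and Atp7b were sparse. Atp8b1 had 38, 40 and 32 counts against 7, 5 and 3, the last at the floor of detection. Atp7b had 30, 59 and 66 counts against 13, 20 and 13. Atp8a1 (1.42), Atp8b3 (0.96) and Atp10d (0.79), of the flippase family, and Atp2a3 (0.59), a calcium pump gene, were higher (edgeR adjusted p = 1.70e-06, 0.0111, 4.90e-07 and 0.0151). The gene annotation used here lists Atp10d as a polymorphic pseudogene. Atp8b3 was also sparse, with 15, 12 and 9 counts against 28, 24 and 28. The call of Atp8b3 was lost without WT replicate 3, and that of Atp2a3 without KO replicate 3 or WT replicate 2.

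**Figure D5:**
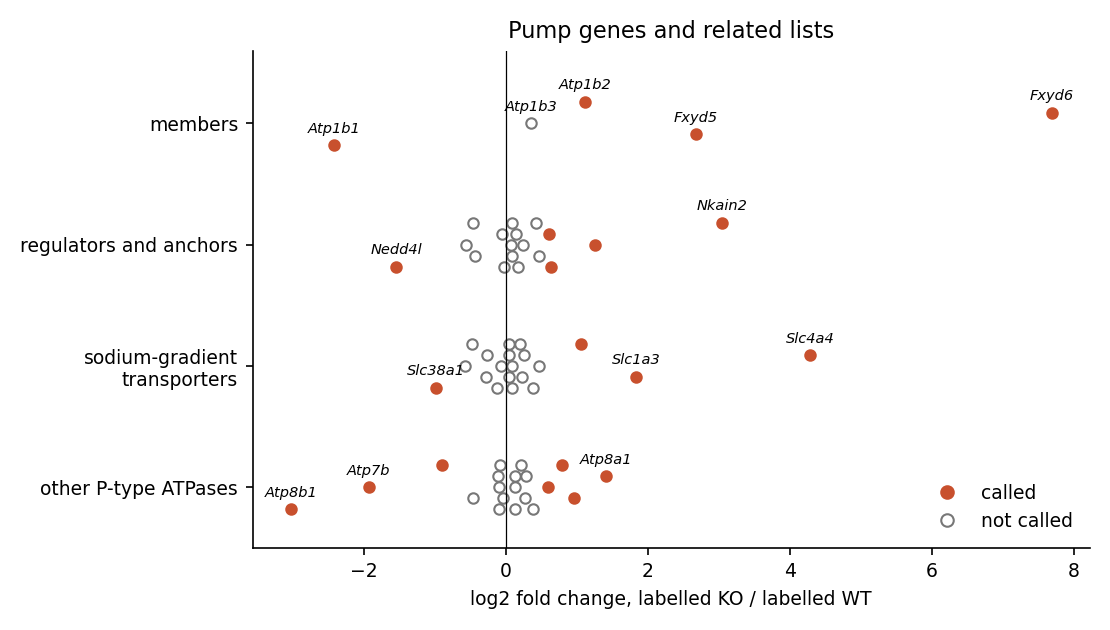
Log2 fold change (labelled KO libraries over WT) of the tested genes in each list, with filled points for called genes and vertical placement within a list only to separate points. Atp1b1 lies at -2.42 while most tested genes of the related lists lie near 0, and the positions of Fxyd6, Nkain2 and Slc4a4 depend on the prior count.

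The genes whose pattern over the 6 libraries was most like that of each pump gene were found by the root mean square difference of centred log2 CPM. Nearest to Atp1b1 were Cxxc5 (0.0668), Clec3b (0.0772) and Ecscr (0.0806). Cxxc5 had 781, 869 and 828 counts in the labelled WT libraries and 193, 215 and 165 in the labelled KO libraries. Nearest to Atp1b3 were Srpr (0.0113), Gatd3a (0.0125) and Rpp30 (0.0145), and nearest to Atp1b2 were Gm6650 (0.0756), Ccne2 (0.101) and Erc2 (0.111). For Fxyd5 they were Gja1 (0.1), the gene of connexin 43, Slc27a1 (0.114) and Bhlhe22 (0.127). Gja1 had 457, 392 and 387 counts against 2931, 3236 and 2612. Zfp775 (0.195), Lpcat2 (0.261) and Hdgfl3 (0.321) were nearest to Fxyd6, and Zfp775 had 0, 1 and 0 counts against 105, 118 and 92. With a prior count of 0.5 in place of 2, 11 of these 15 genes were again among the nearest, and Ecscr, Erc2, Bhlhe22 and Hdgfl3 were not. Bhlhe22 had 1, 0 and 0 counts against 13, 17 and 13, so its distance depends on the prior count. All profiles come from the same 6 libraries and the measure carries no p.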

How the data were processed

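RNA of 6 libraries was sequenced after poly-A selection. The authors deposited raw read counts per gene, and voom log2 CPM values, which matched the counts with 0.5 added and each library scaled (to within 4.99e-09). The submitters' processing notes name STAR 2.7.2b, featureCounts, limma and GRCm38.p6, with no role, order or strand setting. Of 14831 identifiers, 14822 matched GENCODE M21 without the version, which gave positions and exon lengths. Genes listed had at least 20 counts summed. Groups came from the labels.

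Counts were tested with edgeR 4.0.16 (R 4.3.3, TMM scaling, filterByExpr, quasi-likelihood test, Benjamini-Hochberg adjustment) over 14289 genes, after the script was tested on simulated data. The median log2 fold change was 0.002 and the common biological coefficient of variation 3.74%. The smallest two-sided p of an exact permutation test on 1 gene, at 3 libraries a group, is 0.1. Libraries of a group differed beyond sampling noise (chi-square per degree of freedom 2.47 to 7.53), and each counted as 1 replicate well. The adjusted p values thus rest on the spread between wells and do not cover separately derived lines. Counting intervals and floors cover counting error only.

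The members and lists were chosen with earlier results of these data known. Named were the members, the other beta and FXYD genes, up to 4 called genes in each direction from each related list, the 3 nearest patterns and the tested gene on each side of a member, and Gli1, Gli2, Gli3 and Ptch1. Markers were given as lists, and Cdh1, Krt8, Sox9, Thy1, Actg2, Tnnt2, Pdgfra and Pdgfrb were named after their values were seen. Alternatives were scaling by RLE, total counts or the upper quartile, other filters and fold limits, DESeq2 1.42.0, limma 3.58.1 (voom, and the deposited log2 values), other gene lengths and leaving out each library. Protein sequences were not used here, and some genes that this rule names are not reported here.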

Additional observations from a re-analysis of the deposited data

How the results depend on the processing

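No paired analysis was possible because the labels give no replicate numbers that groups share. Over all tested genes 2531 were called, 8391 with no fold limit and 1456 with a 2-fold limit, and 2501 to 2618 without 1 library. Of the 5 pump genes tested, 4 were called in the fit described and 4 without any 1 library. With at least 10 counts in every library 3 were called, since Fxyd6 was then not tested, and with no fold limit 5 were. Of regulators and anchors 5 were called, 3 with at least 10 counts in every library, 13 with no fold limit and 3 with a 2-fold limit, and 4 to 5 without 1 library. Of transporters 4 were called, 3 with at least 10 counts in every library, 13 with no fold limit, and 4 to 6 without 1 library. Of other P-type ATPases 7 were called, 5 with at least 10 counts in every library, 16 with no fold limit, 3 with a 2-fold limit and 6 to 7 without 1 library. The Atp1b1 share with no length was 87.46% in WT and 50.37% in KO (84.16 to 84.78% and 43.52 to 44.5% per length without 1 library). The Atp1b1 to Atp1b3 ratio with no length was 7.021 in WT and 1.025 in KO, where it passed 1 (5.335 to 5.587 and 0.7743 to 0.807 per length without 1 library). No difference between the groups reversed among the results computed. Scaling moved the median log2 fold change of all genes to at most 0.059 and the share of higher calls to between 65.4 and 70.7%. Depth limits Atp1b2, Fxyd5 and Fxyd6, whose lowest libraries hold 12, 20 and 0 counts.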

Other observations

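The nearest tested gene on each side of the 5 pump genes was also read, which gives 10 genes, of which 1 was called higher and 1 lower in the labelled KO libraries, beside 11.6% higher and 6.1% lower over all tested genes. So few calls do not set these neighbours apart, and the values are given as a description. Beyond Atp1b1 on chromosome 1, at a gap of 338 kb, lies Dpt, the gene of the matrix protein dermatopontin. It had 321, 393 and 320 counts in the labelled WT libraries and 29, 31 and 21 in the labelled KO libraries, a log2 fold change of -3.85 (SE 0.13, edgeR adjusted p = 9.03e-11). Mpzl3, 293 kb from Fxyd6 on chromosome 9, had 38, 59 and 37 counts against 145, 145 and 127 (log2 fold change 1.45, SE 0.16, edgeR adjusted p = 6.26e-06). Trp53 and Sat2, the neighbours of Atp1b2, had overlapping CPM ranges in the groups, as did Gm4673 beside Fxyd5 and Cep164 beside Fxyd6. Tfdp2 (0.19) and Rnf7 (0.28), the neighbours of Atp1b3, lay higher on the log2 scale in the labelled KO libraries but under the fold limit.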
